A study of Arabidopsis thaliana with 8 samples.

Results

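Invertases split sucrose irreversibly into glucose and fructose. The vacuolar and neutral invertases of Arabidopsis thaliana were followed here across 8 libraries of floral buds, as 10 genes taken by their identifiers from a table of 33977 genes. They comprise 2 vacuolar invertase genes, VINV1 (AT1G62660, BFRUCT3 in the deposited table) and VINV2 (AT1G12240, BFRUCT4), and 8 neutral invertase genes, CINV1 (AT1G35580), CINV2 (AT4G09510), A/N-InvA (AT1G56560), A/N-InvB (AT4G34860), A/N-InvC (AT3G06500), A/N-InvD (AT1G22650), INV-E (AT5G22510) and A/N-InvH (AT3G05820). Membership was set by gene identity, and no expression value enters the rule.

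RNA came from pooled floral buds of stages 8 to 10, from wild type (WT) and from the transgenic line 4-3, written amiRNACWIN24 below, with the transgene pSTK::amiRNACWIN24. This transgene encodes an artificial microRNA whose name refers to 2 cell wall invertase genes, CWINV2 and CWINV4, and its expression is set by the promoter of STK, a MADS box gene of ovule identity, so that it is directed to a small part of the bud while whole buds were sampled. Each genotype had 4 biological replicates, and the transgenic genotype was represented by a single line. The name of the construct refers to none of the 10 genes. The question for them was whether transcripts of the intracellular enzymes of sucrose cleavage differed in buds in which an apoplastic enzyme was targeted.

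Cell wall invertase acts outside the cell on sucrose unloaded into the apoplast. Vacuolar invertase, from the same acid invertase family, acts on sucrose stored in the vacuole and is known for its part in cell expansion and in the hexose content of growing organs. Neutral invertases are a separate family, act near neutral pH in the cytosol, in mitochondria or in plastids, and feed hexose directly into metabolism. Sucrose cleavage inside cells is thus shared between compartments, and transcripts of each compartment can be read from a separate set of genes.

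Gene structure separated these families. The acid invertases share a coding exon of 9 bases, among the shortest exons known in plants, which encodes the centre of the catalytic motif near the N terminus, and it was present in VINV1, in VINV2 and in CWINV4. The mini-exons are shown because they mark both vacuolar genes as relatives of the cell wall enzymes. Capitals mark the exon and lower case its intron flanks, read from the RefSeq TAIR10.1 genome at chr1:23200631-23200663 (plus strand), chr1:4154418-4154450 (plus strand) and chr2:15176893-15176925 (minus strand).
VINV1: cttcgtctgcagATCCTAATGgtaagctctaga
VINV2: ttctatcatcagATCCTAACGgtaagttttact
CWINV4: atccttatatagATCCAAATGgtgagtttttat

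A further codon tells vacuolar from cell wall enzymes. In the cysteine-containing catalytic motif, vacuolar invertases carry valine and cell wall invertases carry proline between the cysteine and the aspartate. Capitals mark that codon, GTT (valine) in both vacuolar genes and CCT (proline) in CWINV4, at chr1:23202185-23202211 (plus strand), chr1:4156110-4156136 (plus strand) and chr2:15176277-15176303 (minus strand). The coding sequences of VINV1 and VINV2 were identical at 79.3% of 1947 aligned bases, and those of VINV1 and CWINV4 at 52.9%.
VINV1: ggaatgtgggagtgcGTTgatttttac
VINV2: ggaatgtgggagtgtGTTgacttttac
CWINV4: ggtatgtgggaatgtCCTgatttcttc

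The neutral invertases fell into 2 groups of 4 by the lengths of their coding exons. CINV1, CINV2, A/N-InvB and A/N-InvD each have an exon of 432 bases. A/N-InvA, A/N-InvC, INV-E and A/N-InvH each have exons of 212 and 49 bases. The first group holds the cytosolic enzymes CINV1 and CINV2, and the second holds the mitochondrial enzymes A/N-InvA and A/N-InvC and the chloroplast enzyme INV-E. CINV1 and CINV2 were the most alike of the neutral pairs, at 81.1% of coding bases, against 69.6% for A/N-InvA and A/N-InvH, the closest pair in the second group. No stretch of 50 bases in the exons of any of the 10 genes was found in another invertase gene, so that reads of the sequenced length, 125 bases, hold differences between them.

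All 10 genes were expressed in the buds and passed the filter of a mean of at least 1 RPKM (reads scaled to exon length in kilobases and to mapped reads) over the 8 libraries. In WT the order of mean levels was VINV2, CINV1, A/N-InvB, INV-E, A/N-InvC, CINV2, A/N-InvA, VINV1, A/N-InvH and A/N-InvD, from 55.1 down to 2.06 RPKM. Among neighbours in this order the ranges over the WT libraries overlapped for INV-E and A/N-InvC, for A/N-InvC and CINV2, for A/N-InvA and VINV1, and for A/N-InvH and A/N-InvD. In amiRNACWIN24 VINV2 and CINV1 again stood first, and INV-E came next, followed by A/N-InvC, A/N-InvB and CINV2, A/N-InvA, VINV1, A/N-InvD and A/N-InvH. There the ranges of neighbours overlapped for A/N-InvC and A/N-InvB, at means of 22.3 and 22.1 RPKM, and for A/N-InvB and CINV2. The RPKM of VINV1 is divided by an exon length of 3693 nt, the union of 4 annotated transcripts whose median length is 2577 nt, so its level is set low beside genes with a single transcript model. An eleventh gene of the families, A/N-InvF (AT1G72000), which is not among the 10, held at most 0.121 RPKM in any library, from 5 reads, against a floor of 3 reads that a count of 0 allows.

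**Figure D1:**
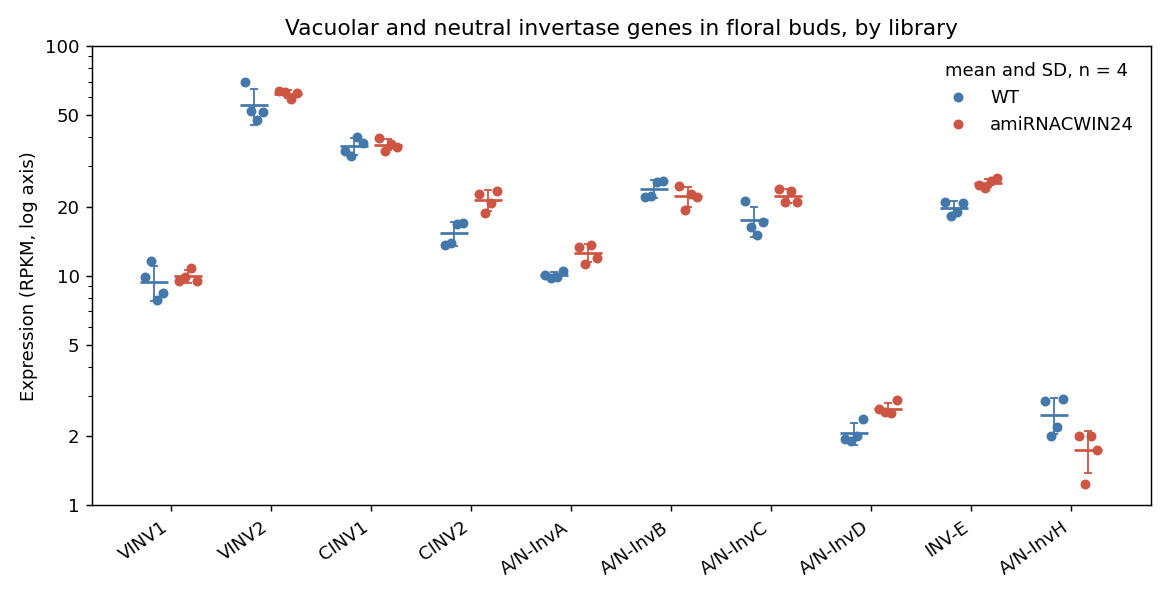
Expression in RPKM on a log axis for the 10 genes, with 1 point per library, bars at the mean and whiskers of 1 SD (n = 4 per genotype). VINV2 is highest in both genotypes, and the groups separate without overlap for CINV2, A/N-InvA, A/N-InvD and INV-E, which are higher in amiRNACWIN24, and for A/N-InvH, which is lower, there by a near tie.

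Added over the 10 genes, expression summed to 192 ± 11.3 RPKM for WT and to 217 ± 8.44 RPKM for the transgenic line (SD, n = 4 per genotype), a description to which no test was applied. The vacuolar genes made up 33.5 ± 3.98% of this sum in WT and 33.1 ± 1.57% in amiRNACWIN24. The group of CINV1 made up 40.6 ± 4.49% and 38.4 ± 1.24%, and the group of A/N-InvA 25.8 ± 0.806% and 28.5 ± 0.836%. Only the last of these shares did not overlap between genotypes, with 24.8 to 26.6% in WT and 28.0 to 29.7% in amiRNACWIN24. Shares were taken from RPKM as deposited. With the exon length trend described below removed, A/N-InvA, A/N-InvC, INV-E and A/N-InvH had log2 fold changes of 0.02, 0.03, 0.02 and -0.63. Of all tested genes, 45.9% did not overlap between genotypes in RPKM. In whole buds fewer cells of a kind and less RNA per cell cannot be told apart, here or in any result that follows.

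The libraries held 22.5 to 26.7 M reads in the 32548 genes found in the RefSeq annotation, as worked out from the spacing of low RPKM values. Of the reads that RPKM was scaled to, 25.5 of 29.1 M lay in those genes in WT replicate 1. In amiRNACWIN24 replicate 2 it was 22.5 of 25.6 M. Both shares were smaller than in the other libraries, which sets RPKM low in these libraries. Where the remaining reads lay was not worked out. Of the genes in the construct's name, CWINV4 fell (log2 fold change -0.95, limma adjusted p = 0.00015), and CWINV2 was too low to be tested. CWINV2 held 2.75 RPKM in WT replicate 1, at most 0.0317 RPKM in the other WT libraries and 0.0166 to 0.104 RPKM in amiRNACWIN24, so that amiRNACWIN24 lay below WT replicate 1 and overlapped the other WT libraries. STK fell as well (log2 -3.23, limma adjusted p = 1.6e-06). Markers of floral organ identity were present, with AP1, AP3, PI, AG and SEP3 each above 60 RPKM on average in both genotypes. LFY was low, at 0.651 ± 0.230 RPKM in WT and 1.25 ± 0.525 RPKM in the transgenic line (SD, n = 4 per genotype). It was detected, from 19 to 36 reads in WT and 25 to 70 in amiRNACWIN24. Its mean over the 8 libraries was under the filter of 1 RPKM, so it was not tested. Of the 5 tested 1 fell, PI (log2 -0.32, limma adjusted p = 0.013), and 0 rose. With the exon length trend described below removed PI did not pass (limma adjusted p = 0.098). On that scale 1 fell, AG (log2 -0.28, limma adjusted p = 0.012), which had not passed as deposited. Of the late pollen markers 7 of 9 fell and 0 rose (6 and 0 with that trend removed), and their summed level was 204 to 552 RPKM in WT and 27.3 to 51.4 RPKM in amiRNACWIN24, with none listed at 0 in every library. Of 5 tapetum markers 3 rose and 0 fell (1 and 0 with the trend removed), with sums of 143 to 424 and 302 to 661 RPKM. Ovule and carpel markers had 2 of 7 rise and 4 fall (1 and 1 with the trend removed), with sums of 73.4 to 96.9 and 74.8 to 104 RPKM. These counts stand against 29.4% of all tested genes that rose and 21% that fell, and 15.1% and 14.2% with the trend removed. Some markers also differed within WT. AGP6, a late pollen marker, held 69.5 and 90.6 RPKM in WT replicates 1 and 2 but 21.3 and 32.6 RPKM in WT replicates 3 and 4. MS2, a tapetum marker, held 42.0 and 25.5 RPKM against 81.7 and 83.5 RPKM. STP9, another late pollen marker, did not split in this way, at 63.4, 104, 42.1 and 64.4 RPKM in WT replicates 1 to 4. The part of these cell types, or of the differences within WT, in the differences of the invertase genes was not tested.

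Across the 10 genes, 4 rose in amiRNACWIN24 and 0 fell in limma, with p-values adjusted by Benjamini-Hochberg across the 19082 genes that passed the filter, at a threshold of 0.05. The genes that rose were all neutral invertases: CINV2 of the cytosol, A/N-InvA and A/N-InvC of mitochondria and INV-E of plastids. Neither vacuolar gene passed. Of all tested genes 29.4% rose and 21% fell, 50.4% in either direction, so that 4 calls among 10 genes are not many for this table. The median log2 fold change of the 10 genes was 0.24, against 0.07 over all tested genes. Groups did not overlap for 5 of the 10 genes, 4 higher and 1 lower in amiRNACWIN24, where 45.9% of all tested genes did not overlap, 27.4% higher and 18.4% lower. The 1 lower gene, A/N-InvH, was separated by a near tie.

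Exon length bears on each of these values, since long genes were higher and short genes lower in amiRNACWIN24 throughout this table. All 10 invertase genes are long, from 2249 to 3693 nt of exon. Among the 4422 tested genes with exon lengths in that range, the median log2 fold change was 0.37, 64.4% rose and 3.71% fell. The median of the 10 invertase genes, 0.24, lay inside the quartiles of those genes, 0.19 and 0.53. Of the 10 genes, 6 are in the decile of 2221 to 2580 nt, whose median was 0.27. With the trend of expression over exon length removed within each library, 1 of the 10 rose (CINV2) and 3 fell (A/N-InvH, A/N-InvB and CINV1), where 15.1% of all tested genes rose and 14.2% fell, 29.3% in either direction. The slope of centred log2 expression per doubling of exon length was -0.37 to -0.13 in the WT libraries and 0.19 to 0.25 in the amiRNACWIN24 libraries. What set this trend was not tested, and values with and without it are given for each gene.

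**Figure D2:**
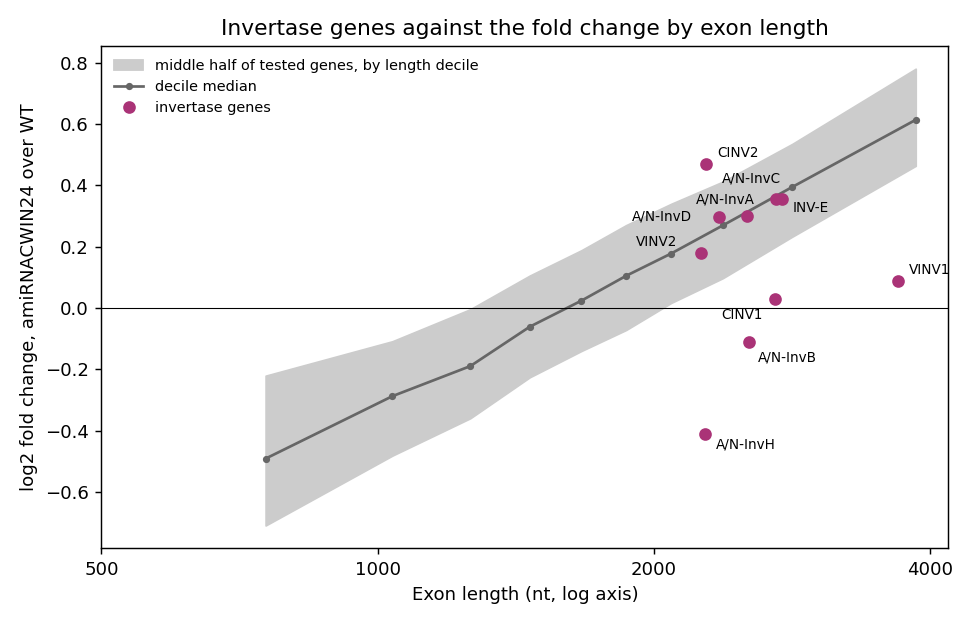
Log2 fold change against exon length on a log axis, for the 10 invertase genes (points) and for deciles of all tested genes by exon length (line at the median, shading from the lower to the upper quartile). A/N-InvA, A/N-InvC, A/N-InvD, INV-E and VINV2 lie within the shading, CINV2 lies above it, and A/N-InvH, A/N-InvB, CINV1 and VINV1 lie below it.

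VINV2 (chr1:4153641-4157653, plus strand), a vacuolar acid invertase gene, was the most abundant transcript of the set. It held 69.5, 52.1, 47.5 and 51.4 RPKM in WT replicates 1 to 4 and 63.5, 63.0, 58.5 and 62.5 RPKM in amiRNACWIN24 replicates 1 to 4. The amiRNACWIN24 libraries lay together, above WT replicates 2 to 4 and below WT replicate 1, so that the groups overlapped. The log2 fold change was 0.18 with a 95% interval of -0.07 to 0.43 and did not pass (limma adjusted p = 0.20). Without WT replicate 1 it passed, at 0.30 (limma adjusted p = 0.0063). With the length trend removed it was -0.03 (interval -0.32 to 0.26).

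VINV1 (chr1:23199612-23203808, plus strand), the other vacuolar gene, held 9.84, 11.5, 7.85 and 8.42 RPKM in WT and 9.50, 9.91, 10.8 and 9.53 RPKM in amiRNACWIN24. All amiRNACWIN24 values lay inside the WT range. The log2 fold change was 0.09 (interval -0.17 to 0.34, limma adjusted p = 0.55). With the trend over exon length removed it was -0.43 (interval -0.76 to -0.10, limma adjusted p = 0.052), all 4 amiRNACWIN24 libraries then lying below all WT libraries. With the trend taken over the median transcript length instead, chosen after seeing the data because the exon union of VINV1 is so much longer than its transcripts, it was -0.27 (limma adjusted p = 0.17). VINV1 passed as lower with GC content added to the exon length correction, at -0.42 (limma adjusted p = 0.038), and with the replicate number as a block on the length-corrected values, at -0.43 (limma adjusted p = 0.032). Without WT replicates 1 and 2 together the deposited values gave a rise of 0.27 (limma adjusted p = 0.046). Quantile normalization gave -0.04, and the authors' deposited table lists -0.02, both without a length correction. The sign of any difference in VINV1 thus depended on the processing.

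CINV1 and CINV2 encode cytosolic neutral invertases that act redundantly in Arabidopsis, where loss of both stunts roots severely. CINV1 lies at chr1:13122082-13125328 and CINV2 at chr4:6021160-6024042, both on the minus strand. CINV2 rose: it held 13.6, 13.9, 16.8 and 17.0 RPKM in WT and 22.6, 18.7, 20.6 and 23.5 RPKM in amiRNACWIN24. Every amiRNACWIN24 library exceeded every WT library. The log2 fold change was 0.47 (SE 0.10), or 1.38-fold with an interval of 1.18 to 1.63 (limma adjusted p = 0.0041). An exact permutation test, two-sided, gave p = 0.029, which is the lowest value possible with 70 arrangements of 4 against 4 libraries. It also rose with the length trend removed, by 0.25 (SE 0.08, limma adjusted p = 0.039), a call that ended when the replicate number was added as a block (limma adjusted p = 0.052). As deposited, CINV2 was lower in WT replicates 1 and 2 than in the other WT libraries. Without those replicates its log2 fold change was smaller, at 0.32, and still passed (limma adjusted p = 0.030). In the authors' deposited table CINV2 alone of the 10 genes has an FDR under 0.05, with a log2 fold change of 0.39 and an FDR of 0.0046, where 42.3% of the genes tested here do.

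CINV1, the more abundant cytosolic gene, held 35.02, 33.0, 40.0 and 37.9 RPKM in WT and 39.7, 34.9, 37.6 and 36.4 RPKM in amiRNACWIN24. The groups shared their range, and the log2 fold change was 0.03 (interval -0.15 to 0.21, limma adjusted p = 0.79). With the length trend removed CINV1 fell, at a log2 fold change of -0.30 (SE 0.06, limma adjusted p = 0.0055), with all amiRNACWIN24 libraries below all WT libraries on that scale. With median transcript length the value was -0.19 (limma adjusted p = 0.046).

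The balance within the cytosolic pair differed between genotypes. CINV1 exceeded CINV2 by ratios of 2.58, 2.38, 2.39 and 2.23 in WT and of 1.76, 1.87, 1.82 and 1.55 in amiRNACWIN24. The ranges did not touch. How often other pairs of genes in this table separate was not counted, for this or the pairs below. Taken singly, 45.9% of all tested genes did not overlap between genotypes. The difference between genotypes in the log2 ratio was -0.44 (exact two-sided permutation p = 0.029, adjusted p = 0.048 over the 5 pairs of genes compared). This adjusted p is under 0.05 only because A/N-InvB to A/N-InvD and INV-E to A/N-InvH also reached the lowest possible p. The same holds for the adjusted p of those pairs, each with a gene of uncertain level. A ratio within a library is unaffected by scaling of the whole library, and with the length trend removed it differed by -0.55 (exact permutation p = 0.029, adjusted p = 0.048). It shows unequal change and not which of the paired genes changed.

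**Figure D3:**
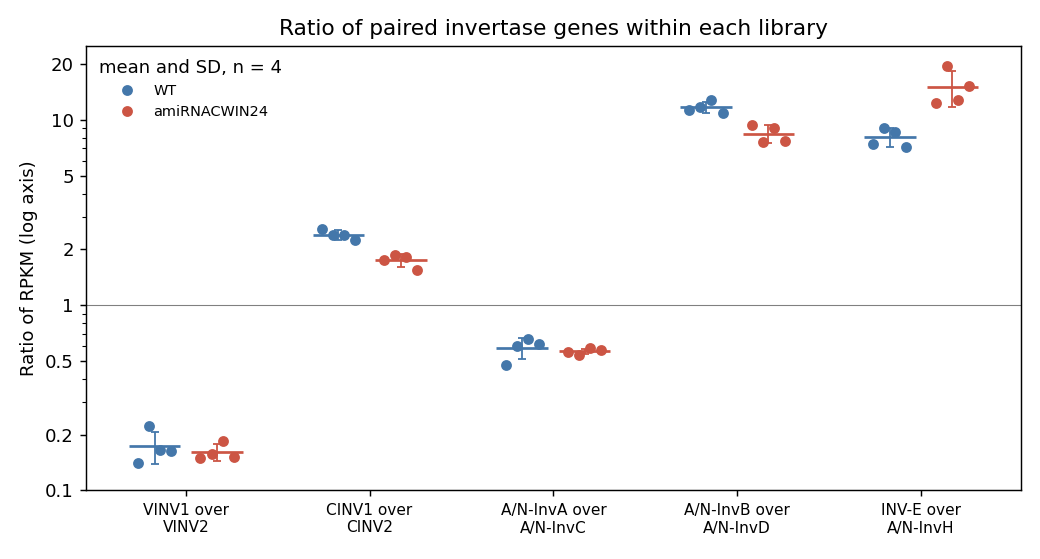
Ratio of RPKM between paired genes within each library on a log axis, with 1 point per library, bars at the mean and whiskers of 1 SD (n = 4 per genotype). The genotypes separate without overlap for CINV1 over CINV2, A/N-InvB over A/N-InvD and INV-E over A/N-InvH, and overlap for VINV1 over VINV2 and A/N-InvA over A/N-InvC.

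A/N-InvB and A/N-InvD share the exon of 432 bases with the cytosolic pair and lie on the minus strand at chr4:16609746-16612907 and chr1:8013353-8016150. A/N-InvB held 22.0, 22.3, 25.6 and 25.9 RPKM in WT and 24.6, 19.4, 22.6 and 22.0 RPKM in amiRNACWIN24, overlapping groups with a log2 fold change of -0.11 (interval -0.32 to 0.10, limma adjusted p = 0.35). With the length trend removed it fell by 0.40 (SE 0.06, limma adjusted p = 0.0025), and all amiRNACWIN24 libraries lay below all WT libraries. A/N-InvB shares 84 bases of exon with PKSB (AT4G34850), a polyketide synthase gene of the sporopollenin pathway on the other strand, and without a stated strand setting the reads there cannot be assigned to a gene. PKSB rose from 16.4, 7.46, 59.4 and 21.5 RPKM in WT to 114, 47.8, 33.6 and 80.7 RPKM in amiRNACWIN24 (log2 1.61, limma adjusted p = 0.031), with WT replicate 3 inside the amiRNACWIN24 range, so the level of A/N-InvB is uncertain to that extent.

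A/N-InvD was among the scarcest transcripts, with 1.94, 1.91, 1.998 and 2.38 RPKM in WT and 2.62, 2.54, 2.52 and 2.86 RPKM in amiRNACWIN24, from 124 to 178 reads per library. Every amiRNACWIN24 library was higher than every WT library. The log2 fold change was 0.30 (interval 0.04 to 0.55) and the adjusted p fell just outside the threshold (limma adjusted p = 0.0502, exact permutation p = 0.029). It passed under 6 of 22 alternatives, among them without WT replicate 4, at 0.36 (limma adjusted p = 0.037). With the length trend removed it was 0.06 (limma adjusted p = 0.66). A/N-InvB exceeded A/N-InvD by ratios of 10.9 to 12.8 in WT and 7.61 to 9.39 in amiRNACWIN24 (log2 difference -0.41, exact permutation p = 0.029, adjusted p = 0.048 over the 5 pairs).

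A/N-InvA and A/N-InvC encode neutral invertases of mitochondria, on the plus strand at chr1:21192137-21195166 and chr3:2011993-2015831. A/N-InvA held 10.1, 9.79, 9.90 and 10.5 RPKM in WT, the smallest WT spread of the set relative to its mean, and 13.4, 11.3, 13.6 and 11.9 RPKM in amiRNACWIN24, where every library was higher than in WT. It rose by a log2 fold change of 0.30 (SE 0.08, limma adjusted p = 0.012, exact permutation p = 0.029). The call ended with the length trend removed, at 0.02 (limma adjusted p = 0.84), and without WT replicates 1 and 2, at 0.28 (limma adjusted p = 0.051). A/N-InvA shares 53 bases with AT1G56555 on the other strand, which held at most 0.637 RPKM.

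A/N-InvC held 21.1, 16.3, 15.1 and 17.1 RPKM in WT and 23.9, 21.0, 23.3 and 20.9 RPKM in amiRNACWIN24. WT replicate 1 reached the lowest amiRNACWIN24 values, so the groups overlapped. It rose by a log2 fold change of 0.36 (SE 0.11, limma adjusted p = 0.017, exact permutation p = 0.086). The call was kept under 15 of 23 alternatives, fewer than for the other genes that rose. It ended at 0.29 without WT replicate 3 (limma adjusted p = 0.051), at 0.32 without amiRNACWIN24 replicate 1 (limma adjusted p = 0.052), at 0.30 with median-of-ratios scaling, at 0.27 with quantile normalization and at 0.03 with the length trend removed. The ratio of A/N-InvA to A/N-InvC was 0.587 ± 0.0771 in WT and 0.563 ± 0.0194 in amiRNACWIN24 (SD, n = 4 each), a log2 difference of -0.06 (exact permutation p = 0.63).

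INV-E and A/N-InvH complete the second group by exon structure, on the minus strand at chr5:7474635-7478335 and chr3:1732988-1735765. INV-E, known in Arabidopsis as a chloroplast neutral invertase, held 21.0, 18.2, 18.9 and 20.8 RPKM in WT and 24.8, 24.2, 25.8 and 26.51 RPKM in amiRNACWIN24. No library of one genotype reached the other. It rose by a log2 fold change of 0.35 (SE 0.08), 1.28-fold with an interval of 1.14 to 1.44 (limma adjusted p = 0.0032, exact permutation p = 0.029). With the length trend removed it was 0.02 (interval -0.10 to 0.13, limma adjusted p = 0.84). Markers of green tissue, RBCS1A, LHCB1.3 and PSAG, went the other way, with 3 of 3 falling and sums of 10805 to 13634 RPKM in WT and 7973 to 9595 RPKM in amiRNACWIN24. With the length trend removed 0 of those 3 passed in limma.

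A/N-InvH, an organelle-targeted neutral invertase whose compartment is not named here, had the most negative log2 fold change of the 10 genes. It held 2.84, 2.01, 2.20 and 2.90 RPKM in WT and 2.003, 1.24, 2.01 and 1.75 RPKM in amiRNACWIN24, from 72 to 188 reads per library. All amiRNACWIN24 values were below all WT values, although by a near tie. WT replicate 2 held 2.00777 RPKM from 126 reads and amiRNACWIN24 replicate 3 held 2.00768 RPKM from 121 reads. The log2 fold change was -0.41 (SE 0.16, interval -0.78 to -0.05) and did not pass (limma adjusted p = 0.058, exact permutation p = 0.029). It passed without WT replicate 2, at -0.49 (limma adjusted p = 0.042), with the length trend removed, at -0.63 (limma adjusted p = 0.011), and on the recovered reads with voom, at -0.52 (limma adjusted p = 0.039). It also passed with median-of-ratios scaling, at -0.46 (limma adjusted p = 0.031), and at an unchanged fold with eBayes without a trend (limma adjusted p = 0.041) and with the replicate number as a block (limma adjusted p = 0.042).

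The deposited tables did not match for A/N-InvH. The authors' deposited table of the comparison lists 0.83 RPKM as the larger group mean of A/N-InvH, where the RPKM table gives 2.49 RPKM in WT, and it lists a log2 fold change of -0.96 with an FDR of 0.056. For the other 9 genes the larger group mean in the authors' deposited table was within 5% of the mean in the RPKM table. Among all 19082 tested genes 93.6% were within 5%, and 180 genes, or 0.943%, were, like A/N-InvH, below 0.5 of the RPKM table. The level of A/N-InvH is therefore uncertain, while both tables have it lower in amiRNACWIN24.

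INV-E and A/N-InvH had the largest difference in ratio of the 5 pairs. The pairs were set by named compartment or kind and are not always the closest in sequence. INV-E and A/N-InvH share 62.5% of coding bases, against 69.6% for A/N-InvA and A/N-InvH. A/N-InvB and A/N-InvD share 71.1%, against 75.8% for CINV2 and A/N-InvD. INV-E exceeded A/N-InvH by ratios of 7.39, 9.06, 8.60 and 7.17 in WT and of 12.4, 19.5, 12.8 and 15.2 in amiRNACWIN24, with no overlap. The log2 difference was 0.77 (exact permutation p = 0.029, adjusted p = 0.048) and 0.65 with the length trend removed (exact permutation p = 0.029, adjusted p = 0.048). It carries the uncertainty of A/N-InvH. VINV1 over VINV2 was 0.173 ± 0.0342 in WT and 0.161 ± 0.0161 in amiRNACWIN24 (SD, n = 4 each), with a log2 difference of -0.09 (exact permutation p = 0.63) that became -0.40 with the length trend removed (exact permutation p = 0.057, adjusted p = 0.071).

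**Figure D4:**
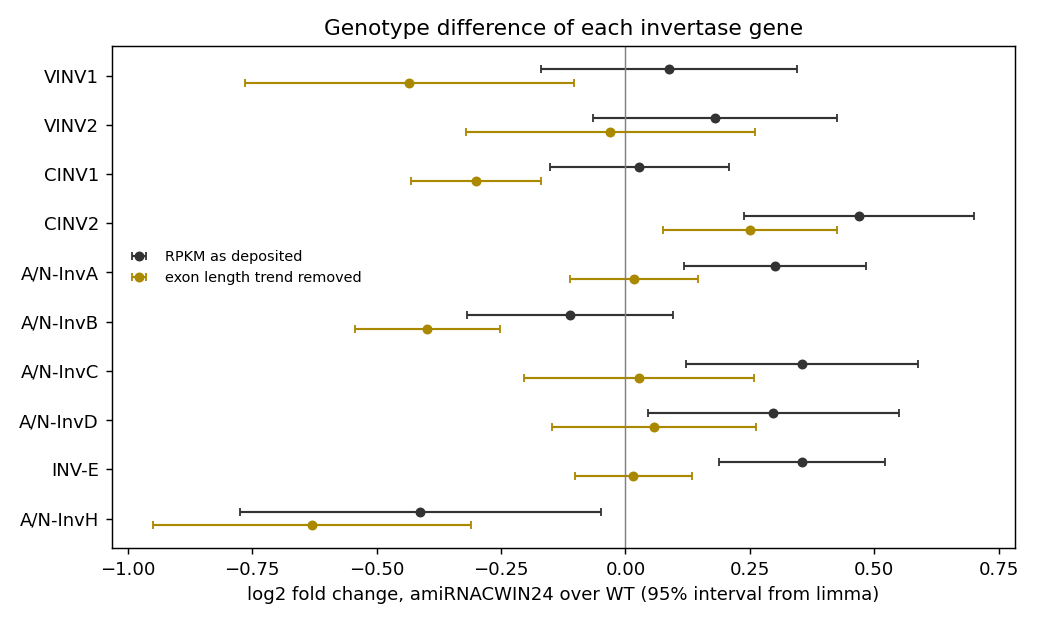
Log2 fold change of amiRNACWIN24 over WT for the 10 genes with 95% intervals from limma, from the RPKM as deposited and with the trend over exon length removed in each library (n = 4 per genotype). The interval of CINV2 lies above 0 and that of A/N-InvH below 0 on both scales, while A/N-InvA, A/N-InvC, A/N-InvD and INV-E lie above 0 only as deposited and VINV1, CINV1 and A/N-InvB lie below 0 only with the trend removed.

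Genes with the most similar pattern over the 8 libraries were found by the root-mean-square difference of log2 values centred on each gene's mean. Nearest to CINV2 was IDN2, a gene of RNA-directed DNA methylation, at a difference of 0.02, followed by AT3G19300 and AT3G58110, each at 0.04. Nearest to CINV1 were AT1G01920, ATXR2 and AT1G80245, each at 0.04. Nearest to VINV2 were PIF4, a bHLH factor of light and temperature signalling, at 0.05, HCF173 at 0.07 and CYP72A13 at 0.08, and nearest to VINV1 were UMAMIT41 (AT3G28050) at 0.04, AT3G17120 at 0.05 and RD22 at 0.06. These are descriptions of likeness in 8 libraries.

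Genes that act beside invertases were counted by list. Beside these counts, 29.4% of all tested genes rose and 21% fell, or 15.1% and 14.2% with the length trend removed. The 64.4% and 3.71% given above hold only for exons of 2249 to 3693 nt, and several genes of these lists lie outside that range. Proteins that inhibit vacuolar and cell wall invertase are encoded by C/VIF1 and C/VIF2, of which 0 of 2 passed. C/VIF2 held 52.1 ± 12.6 RPKM in WT against 61.1 ± 4.91 RPKM in the transgenic line (SD, n = 4 per genotype, log2 0.26, limma adjusted p = 0.19), and passed with the length trend removed, at 0.57 (limma adjusted p = 0.0098). C/VIF1 overlaps a gene on its own strand and is uncertain, at 5.86 ± 3.60 and 6.95 ± 2.55 RPKM. Sucrose synthases, which cleave sucrose reversibly with UDP, had 3 of 4 tested genes rise and 0 fall, SUS6 by 0.53 and SUS1 by 0.46 on the log2 scale, and 0 passed in either direction with the length trend removed.

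Other enzymes act on the hexoses that cleavage releases. Fructokinases phosphorylate the fructose that invertase releases, and of 5 tested genes of this list, annotated as pfkB-like carbohydrate kinases, 3 fell and 0 rose, with the same counts when the length trend was removed. These tested genes are shorter than the invertases, with 1103 to 1796 nt of exon. Median log2 fold changes of the deciles at such lengths ran from -0.29 (912 to 1149 nt) to 0.11 (1765 to 1969 nt). AT4G10260 fell from 76.7 ± 13.6 to 18.6 ± 4.68 RPKM (log2 -2.03, limma adjusted p = 4.5e-05) and AT3G59480, which overlaps another gene by 3 bases, from 62.4 ± 12.2 to 25.9 ± 3.07 RPKM (log2 -1.24, limma adjusted p = 0.00015; SD, n = 4 each). Of 5 tested hexokinase and hexokinase-like genes 1 rose and 2 fell on both scales, with HKL3 falling by 1.69 and HKL1 rising by 0.82 on the log2 scale. The sum of late pollen markers given above moved in the same direction as the fructokinases, and its part was not tested.

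Carriers of the vacuolar membrane move sucrose and hexoses in and out of the compartment of VINV1 and VINV2. Among 10 tested genes there were 5 that rose and 1 that fell, and with the length trend removed there were 3 and 1. TMT1, a tonoplast monosaccharide carrier that overlaps genes on the other strand, rose from 7.57 ± 1.08 to 13.0 ± 0.869 RPKM (by 0.75 on the log2 scale, with a limma adjusted p = 0.00040), while TMT3 fell from 11.0 ± 1.41 to 2.87 ± 0.540 RPKM (log2 -1.77, limma adjusted p = 1.7e-05; SD, n = 4 each). Sucrose synthesis, the reverse of cleavage, had 2 of 10 rise and 2 fall, and 1 rise and 5 fall with the length trend removed. SPS1F, a sucrose phosphate synthase, rose by 0.82 and SPP1, a sucrose phosphatase, fell by 1.76 on the log2 scale. Of 3 tested cell wall invertase genes 1 rose (CWINV3, by 0.54 on the log2 scale) and 1 fell (CWINV4, from 26.9 ± 2.61 to 13.8 ± 1.76 RPKM), on both scales.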

How the data were processed

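Total RNA libraries were sequenced as 125 bp paired ends at a stated mean of 30 M reads, per the labels' protocols, on TAIR10, per the submitters' processing notes. The sources used here do not give the aligner, counter or strand setting. The authors deposited RPKM per library for 33977 genes, per the file headers, and a comparison table whose log2 fold changes, signed fold change (a score) and p-values are quoted only as theirs. Of these genes 32532 had the same coordinates in the RefSeq TAIR10.1 annotation, from which exon lengths and sequences came. Reads were recovered from the steps of low RPKM values, of which 99.6% to 99.7% per library were whole within 0.05 reads. The 3-read floor covers counting error only, while limma intervals rest on the spread between libraries.

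Values were analysed as log2(RPKM + 0.5), which understates changes of low genes, keeping the 19082 genes whose mean reached 1 RPKM, with limma 3.58.1 in R 4.3.3 (trended eBayes, two-sided, genotype only) and Benjamini-Hochberg adjustment over all genes tested. Gene pairs were compared by exact permutation in scipy 1.17.1 and coding sequences aligned with mafft 7.526. Length trends were removed per library with a natural spline of 4 degrees of freedom. The procedure was also run on simulated data with far fewer changed genes than here, which does not bear on the calls reported. Genes named are the 10 invertases, STK and CWINV4, up to 2 genes of smallest p per list of related genes, markers, genes overlapping a member, and 3 nearest genes each for VINV1, VINV2, CINV1 and CINV2. The members and lists were chosen with earlier results of these data known. Alternatives were other pseudocounts, filters, scalings, weights, voom on recovered reads, the replicate number as a block, length and GC corrections, and libraries left out.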

Additional observations from a re-analysis of the deposited data

How the results depend on the processing

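Between 3 and 6 of the 10 genes were called under each of 23 alternatives, against 4 as reported, but the genes and directions changed. As reported 4 rose and 0 fell, where 29.4% and 21% of all tested genes did. With the exon length trend removed 1 rose and 3 fell, where 15.1% and 14.2% did. With GC added it was 1 and 4, beside 2875 and 2798 of 18994 tested genes. With the replicate block on length-corrected values it was 0 and 4, beside 2579 and 2360. A/N-InvA, A/N-InvC and INV-E passed under none of the length corrections. The 9609 calls over all genes became 5573 with the exon length trend removed, 5673 with GC added, 5045 with median transcript length (added after seeing the data) and 4939 with the replicate block on length-corrected values. With length removed, length and GC removed, transcript length used, and block with length removed, the log2 fold changes that turned sign were -0.43, -0.42, -0.27 and -0.43 for VINV1, -0.0302, -0.0481, -0.0889 and -0.0302 for VINV2, and -0.30, -0.30, -0.19 and -0.30 for CINV1. A/N-InvA and A/N-InvC turned with transcript length, to -0.0427 and -0.0231. VINV1 also turned under quantile normalization (-0.0378), and CINV1 under median-of-ratios scaling (-0.0316), with array weights (-0.00461), without WT replicates 1 and 2 (-0.0689), and on leaving out 1 library, where it ran from -0.0182 to 0.0729. The cause was not tested.

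The labels do not say that replicate numbers pair the libraries. Correlations of same-numbered deviations were -0.27, 0.14, -0.32 and 0.53, against -0.40 to 0.37 for different numbers. With so few libraries these values cannot settle whether the numbers pair them. With the replicate block 9171 genes were called, A/N-InvH among them (adjusted p = 0.042). With length removed, the block ended the call of CINV2 (0.052) and added VINV1 as lower (0.032). In the block with signs flipped over 16 arrangements, the ratios stayed at -0.44 (CINV1 to CINV2), -0.41 (A/N-InvB to A/N-InvD) and 0.77 (INV-E to A/N-InvH), in a design too small to pass. Leaving out 1 library, also too small to pass, gave -0.47 to -0.39, -0.46 to -0.36 and 0.67 to 0.83, and -0.18 to 0.0282 for VINV1 to VINV2. Without WT replicates 1 and 2 they were -0.39, -0.44 and 0.79.

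Depth limits A/N-InvH, whose lowest library held 72 reads, a counting error of 11.8%, and A/N-InvF, at 0 to 5 reads. A/N-InvD and A/N-InvH have no value under a minimum of 5 RPKM.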
